A study of Mus musculus with 6 samples.

Results

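The genes described here are 10 mouse genes whose transcription is raised by NRF2, the transcription factor that answers oxidative and electrophilic stress. They were chosen by symbol, as Hmox1, Nqo1, Gclc, Gclm, Srxn1, Txnrd1, Slc7a11, Osgin1, Gsr and Sqstm1, and all 10 were found among the 35976 genes listed in the count tables. The members, and the lists set beside all tested genes below, were chosen with earlier results of these data known. RNA was sequenced from 6 cultures of mouse sensory neurons, which carry touch, heat and pain signals to the spinal cord and have their cell bodies in the dorsal root ganglia. The cells came from lumbar ganglia of adult wild-type C57BL/6 mice of both sexes and were kept in DMEM/F-12 with fetal bovine serum, antibiotics and growth factors. After 24 h on the dish, 3 cultures received vehicle and 3 received HC-HA/PTX3 at 15 µg/mL, in each case for 24 h. HC-HA/PTX3 is a complex of heavy chain, hyaluronic acid and pentraxin 3 purified from human amniotic membrane. The replicate numbers 1, 2 and 3 occur in both groups, and each treated culture was compared with the vehicle culture of its number. The authors call the cultures biological replicates, but the labels do not say that those of a group came from separate animals, so p-values measure the spread between these samples.

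In resting cells NRF2, encoded by Nfe2l2, is held by KEAP1, which hands it to a CUL3 ubiquitin ligase for degradation. When reactive compounds modify KEAP1, NRF2 escapes, pairs with a small MAF protein and binds antioxidant response elements in its target genes. The targets make glutathione, keep thioredoxin reduced, detoxify quinones and break down heme, tasks that matter to sensory neurons because of their high respiration and long axons.

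Levels are given as CPM, counts scaled to library size with factors from the trimmed mean of M-values (TMM). The libraries held 42516054, 42617496 and 54117547 counts in vehicle replicates 1, 2 and 3, and 37998071, 37434266 and 38420247 counts in the treated cultures of the same numbers. At this depth 1 CPM equalled between 37.1 and 56.0 counts, and a gene with a count of 0 could still reach 0.0808 CPM in the library with the highest limit. The least abundant member, Osgin1, was well above that limit in every culture. The 10 members together reached 1485, 1735 and 2292 CPM in vehicle replicates 1, 2 and 3, and 1924, 1959 and 2948 CPM in treated replicates 1, 2 and 3. The treated culture thus held the higher sum in each pair, while vehicle replicate 3 held more than treated replicates 1 and 2. The sum is weighted toward Sqstm1, Srxn1 and Txnrd1, the most abundant members in CPM in every culture. Gclc was lower after treatment in each pair, and Hmox1, Nqo1 and Gclm were lower in pair 2.

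Promoter sequence was available for 7 of the 10 members, in 9 windows of the RefSeq set for GRCm38.p6, each spanning 250 bases before to 50 bases after an annotated start. Hmox1, Gclc and Gsr had no entry. The windows were searched on both strands for the core of the antioxidant response element, TGACNNNGC, and for the AP-1 element TGANTCA, where N is any base. A longer form with the letters a small MAF protein contacts, TGANTCAGC, was added after the sequences had been read, and every match to it is also a match to TGANTCA. Of the 32851 windows of this length, 12.4% held TGACNNNGC, 7.81% held TGANTCA and 1.19% held TGANTCAGC. Among the 9 member windows, TGACNNNGC occurred in 3 (Srxn1, Gclm and 1 of Txnrd1), and both other motifs in 2 (Srxn1 and Osgin1). The stretches before the start that held a match are shown because these members are compared below, with matches in capitals and annotated exons left out. All 4 are on the plus strand.
Srxn1, chr2:152105274-152105515: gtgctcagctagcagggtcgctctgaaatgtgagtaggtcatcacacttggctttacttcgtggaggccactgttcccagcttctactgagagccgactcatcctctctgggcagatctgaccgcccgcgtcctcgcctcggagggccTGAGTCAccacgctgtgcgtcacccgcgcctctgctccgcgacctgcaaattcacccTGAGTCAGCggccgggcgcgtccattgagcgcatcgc
Osgin1, chr8:119436897-119437117: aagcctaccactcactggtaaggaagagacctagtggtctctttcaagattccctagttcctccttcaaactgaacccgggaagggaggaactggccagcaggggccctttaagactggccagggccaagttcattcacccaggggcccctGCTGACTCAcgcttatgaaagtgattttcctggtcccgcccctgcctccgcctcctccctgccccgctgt
Gclm, chr3:122245307-122245556: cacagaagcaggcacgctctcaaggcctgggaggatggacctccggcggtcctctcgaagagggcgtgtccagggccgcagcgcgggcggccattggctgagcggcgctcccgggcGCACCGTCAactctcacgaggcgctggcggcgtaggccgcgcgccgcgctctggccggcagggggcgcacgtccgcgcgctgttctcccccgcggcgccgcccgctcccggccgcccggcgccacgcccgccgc
Txnrd1, chr10:82859009-82859178: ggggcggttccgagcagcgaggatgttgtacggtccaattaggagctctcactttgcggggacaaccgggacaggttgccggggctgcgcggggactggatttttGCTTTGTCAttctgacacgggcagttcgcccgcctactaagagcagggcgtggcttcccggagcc
With the start as position 0, Srxn1 held TGAGTCA at -102 and again at -45, the latter running on into TGAGTCAGC. In Osgin1 the same 9 letters lay on the minus strand at -99. The matches to TGACNNNGC lay on the minus strand at -134 in Gclm and at -92 in Txnrd1, and that of Srxn1 lay after the start, at 28. Of the 3 Txnrd1 windows, only the printed one held a match. The Srxn1 and Gclm stretches are upstream of their genes in the GENCODE M21 annotation of mm10 (GRCm38), whereas those of Osgin1 and Txnrd1 lie in introns of longer transcripts. A match describes the letters and does not show that a factor bound there.

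The comparison asked whether HC-HA/PTX3 changed the members within same-numbered pairs. Counts of 18277 genes that passed a low-count filter, among them all 10 members, were fitted with edgeR's quasi-likelihood model, with replicate number and treatment as terms. A gene was called when its p-value after Benjamini-Hochberg adjustment was below 0.05 and its log2 fold change exceeded 0.5 in size. None of the 10 members was called, against 8.7% of all tested genes, of which 3.32% were called higher and 5.38% lower. DESeq2, limma-voom and ComBat-seq followed by limma also called 0 of the 10, and 5 members had an unadjusted p under 0.05 in edgeR's fit, as did 33.2% of all tested genes. By the adjusted p alone, 3 members passed and all 3 were higher (Sqstm1, Txnrd1 and Srxn1), against 19.2% of tested genes in either direction and 7.67% that were higher. With ComBat-seq and limma 5 passed, Gsr and the lower Gclc among them, and without a low-count filter 5 passed, with Nqo1 and Slc7a11. The fitted change was above 0 in 9 members and below 0 in Gclc, with a median log2 fold change of 0.29 against -0.0067 over all tested genes. Within pairs, 6 members were higher after treatment in all 3 pairs and 1 was lower in all 3, against 25.3% and 28.6% of tested genes. In no member did the groups lie apart, whereas treated cultures lay wholly above vehicle in 9.44% of tested genes and wholly below in 8.57%. In an exact two-sided permutation test of 3 against 3 cultures, whose smallest possible p is 0.1, the members gave p between 0.2 and 0.9.

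**Figure D1:**
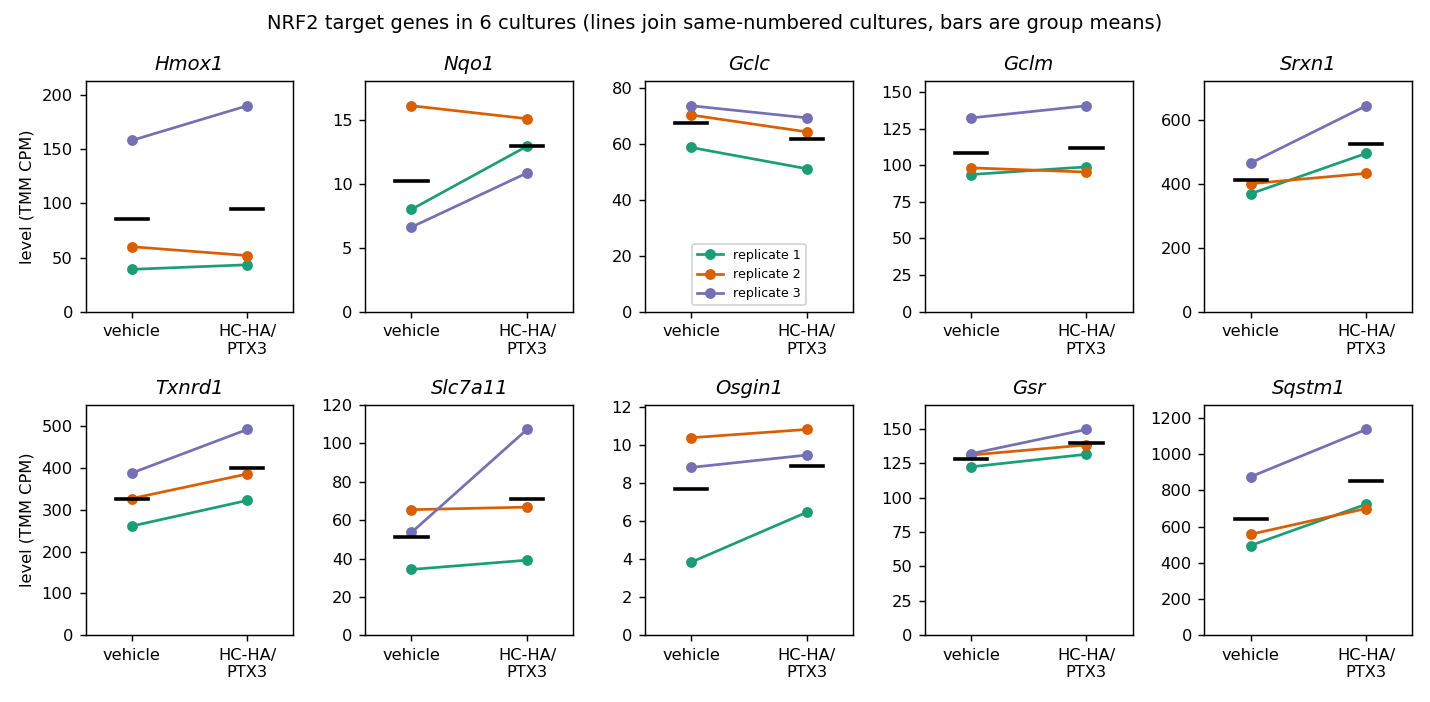
Level of each of the 10 members in TMM CPM (linear axis from 0), with a line joining the vehicle and HC-HA/PTX3 cultures of each replicate number and black bars at the group means of 3 cultures. Lines for Sqstm1, Txnrd1 and Srxn1 slope upward in all 3 pairs, and replicate 3 lies far above the others for Hmox1 in both groups.

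Sqstm1 encodes p62, an autophagy receptor that binds KEAP1 and takes it to the autophagosome, and it had the smallest adjusted p of the 10. The gene lies on chromosome 11 from 50199366 to 50210827 on the minus strand. It stood at 496, 558 and 876 CPM in vehicle replicates 1, 2 and 3 and at 724, 700.0 and 1136 CPM in the treated cultures. Each treated culture was above its vehicle partner, yet vehicle replicate 3 exceeded treated replicates 1 and 2, so the groups overlapped. The fitted log2 fold change was 0.42 (SE 0.068, 95% interval 0.27 to 0.57, adjusted p = 0.00303 by edgeR's quasi-likelihood fit and Benjamini-Hochberg), a 1.33-fold difference short of the fold threshold, with 0.55, 0.33 and 0.38 in pairs 1, 2 and 3. Its exons share 580 bases with Mrnip on the opposite strand, and the strand setting of the counting is not stated, so reads of the 2 genes cannot be told apart there.

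The thioredoxin branch reduces oxidised proteins and peroxiredoxins. Txnrd1, the cytosolic thioredoxin reductase, lies on chromosome 10 from 82833951 to 82897712 on the plus strand. It measured 261, 327 and 387 CPM in vehicle replicates 1, 2 and 3, and 322, 385 and 491 CPM after HC-HA/PTX3. The treated culture was the higher in each pair while the groups overlapped, with replicate 3 highest and replicate 1 lowest in both. The log2 fold change was 0.30 (SE 0.061, 95% interval 0.16 to 0.43, edgeR adjusted p = 0.00881), below the fold threshold, and the pairs gave 0.30, 0.24 and 0.34. Srxn1 encodes sulfiredoxin, which repairs over-oxidised peroxiredoxins, and lies on chromosome 2 from 152105516 to 152111376 on the plus strand, directly after the stretch printed above. Its levels were 368, 399.8 and 464 CPM with vehicle and 495, 432 and 643 CPM with HC-HA/PTX3. Treated replicate 3 was the highest culture, and only treated replicate 2 lay within the vehicle range. The fitted log2 fold change was 0.34 (SE 0.078, 95% interval 0.16 to 0.51, edgeR adjusted p = 0.0146), also below the fold threshold, with 0.43, 0.11 and 0.47 in the 3 pairs.

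For these 3 genes the p-value depended on the pairing and the fold change did not. With treatment as the only term, the log2 fold changes of Sqstm1, Txnrd1 and Srxn1 were 0.41, 0.30 and 0.35. In that fit edgeR gave adjusted p = 0.633 for Sqstm1 and Txnrd1 and 0.491 for Srxn1, the smallest of the 10. That fit called 0 of all 18277 genes, with 2089 at an unadjusted p under 0.05 and 0 members among them.

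Glutathione synthesis starts with cystine uptake and the joining of cysteine to glutamate. Slc7a11, the xCT subunit of the cystine/glutamate exchanger, lies on chromosome 3 from 49892526 to 50443614 on the minus strand. It was at 34.4, 65.5 and 53.6 CPM in vehicle replicates 1, 2 and 3 and at 39.2, 66.8 and 107 CPM in the treated cultures. Treated replicate 3 stood apart from the other 5 cultures, which all lay between 34.4 and 66.8 CPM. The log2 fold change of 0.41 (SE 0.15, 95% interval 0.080 to 0.74, edgeR adjusted p = 0.0817) came from pair differences of 0.19, 0.029 and 1.0. Without replicate 3 it was 0.12, with adjusted p = 0.483.

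Gclc and Gclm encode the catalytic and modifier subunits of glutamate-cysteine ligase, the rate-limiting enzyme. Gclc, on chromosome 9 from 77754535 to 77794485 on the plus strand, was at 58.6, 70.2 and 73.5 CPM with vehicle and at 51.0, 64.2 and 69.2 CPM after treatment. It was the only member lower in all 3 pairs, and the groups overlapped. Its log2 fold change was -0.14 (SE 0.066, 95% interval -0.28 to 0.0079, edgeR adjusted p = 0.172). Gclm, on chromosome 3 from 122245557 to 122270732 on the plus strand, was at 93.6, 98.2 and 132 CPM with vehicle and at 98.8, 95.3 and 141 CPM after treatment. Replicate 3 was the high culture of both groups, and the other 4 cultures differed by little. The log2 fold change was 0.042 (SE 0.062, 95% interval -0.096 to 0.18, edgeR adjusted p = 0.685). The interval of this blocked fit excludes a change of 0.5 in either direction, and without the replicate block the SE was 0.198. Gclm shares 296 exon bases with the antisense gene Gm17494 and 244 with the pseudogene Gm6061, and reads there may have been split.

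Gsr encodes glutathione reductase, which regenerates glutathione with NADPH, and lies on chromosome 8 from 33652523 to 33698163 on the plus strand. It was the steadiest member, at 122, 131 and 132 CPM with vehicle and 131, 138 and 149 CPM with HC-HA/PTX3. The treated culture was higher in each pair by a small margin, and treated replicate 1 lay within the vehicle range. The log2 fold change was 0.12 (SE 0.060, 95% interval -0.012 to 0.26, edgeR adjusted p = 0.189).

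Nqo1, the quinone reductase often used as a reporter of NRF2 activity, lies on chromosome 8 from 107388225 to 107403206 on the minus strand. It was at 8.02, 16.1 and 6.63 CPM in vehicle replicates 1, 2 and 3 and at 13.0, 15.1 and 10.9 CPM in the treated cultures. Treated replicates 1 and 3 were above their partners, treated replicate 2 was slightly below, and vehicle replicate 2 was the highest of all 6. Its log2 fold change of 0.43 (SE 0.16, 95% interval 0.075 to 0.78, edgeR adjusted p = 0.0867) came from pairs of 0.69, -0.094 and 0.71. It was the largest value of the members in this fit. Sqstm1, Slc7a11, Srxn1 and Osgin1 lay within its SE and each exceeded Nqo1 in some other fit, so their order is not settled. Without replicate 2 the value was 0.70 with adjusted p = 0.0208, which passes both thresholds. Without replicate 1 or without replicate 3 it was 0.30, with edgeR adjusted p = 0.36 and 0.25, which pass neither.

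Osgin1, an oxidative stress induced growth inhibitor, lies on chromosome 8 from 119434124 to 119446256 on the plus strand. It was at 3.85, 10.4 and 8.82 CPM with vehicle and 6.47, 10.8 and 9.47 CPM with HC-HA/PTX3. Replicate 1 was the low culture of both groups and showed the largest difference of the 3 pairs, 0.75 on the log2 scale against 0.059 and 0.10. The log2 fold change was 0.28 (SE 0.15, 95% interval -0.054 to 0.61, edgeR adjusted p = 0.225), and it was 0.083 without replicate 1.

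Hmox1, the stress-inducible heme oxygenase that breaks heme down to biliverdin, carbon monoxide and iron, lies on chromosome 8 from 75093621 to 75100589 on the plus strand. It was at 39.1, 60.0 and 158 CPM in vehicle replicates 1, 2 and 3 and at 43.3, 51.9 and 190.2 CPM in the treated cultures. The cultures of replicate 3 were far above the rest in both groups, and the pairs did not share a direction. The log2 fold change was 0.071 (SE 0.088, 95% interval -0.12 to 0.27, edgeR adjusted p = 0.62), with 0.15, -0.21 and 0.27 in the pairs and -0.019 without replicate 3. The interval of this blocked fit excludes a log2 change of 0.5 in either direction, but without the replicate block the SE was 0.705.

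**Figure D2:**
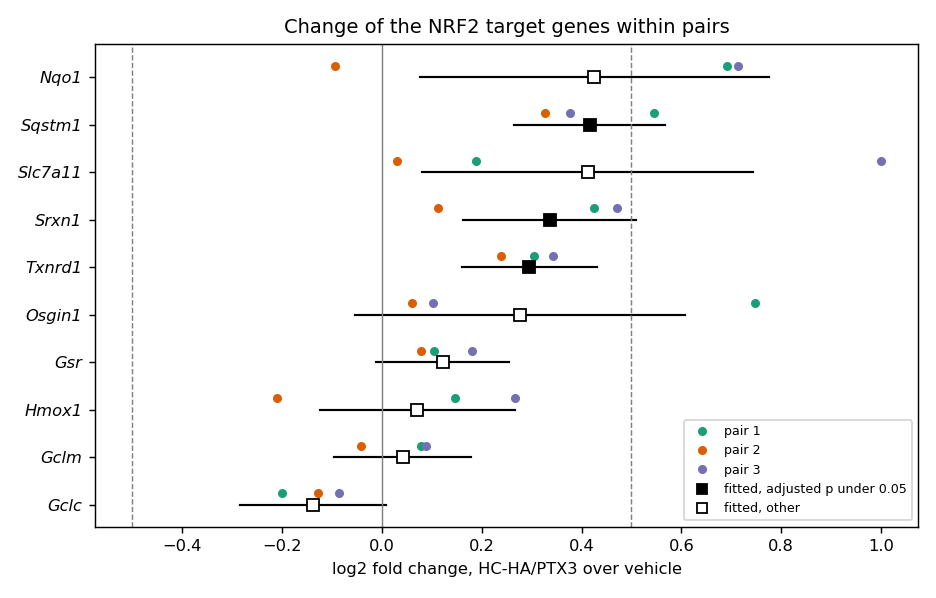
Log2 fold change of HC-HA/PTX3 over vehicle for the 10 members, with squares for the fitted value, lines for its 95% interval, small circles for the 3 pairs and dashed lines at -0.5 and 0.5. Filled squares mark an adjusted p under 0.05 (Sqstm1, Srxn1 and Txnrd1), and no such square lies beyond 0.5.

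In all members but Nqo1, the fitted difference between replicates 3 and 1 was larger in size than the treatment difference. In the same edgeR fit, a test of the replicate number, added after the data had been seen, passed an adjusted p of 0.05 in 9 of the 10 members, all but Gsr, against 33.8% of tested genes. Relative to replicate 1, replicate 3 was higher by 2.08 on the log2 scale for Hmox1 (adjusted p = 9.21e-07 from edgeR with Benjamini-Hochberg adjustment), 1.07 for Slc7a11 and 0.73 for Sqstm1. Over the 10 members the median of this difference was 0.55, against -0.0071 over all tested genes, and Nqo1 alone was below 0, at -0.27. Across the 3 vehicle cultures the highest Hmox1 level was 4.04 times the lowest, while the median ratio over 15000 tested genes of at least 1 CPM was 1.3 and the 90th percentile 2.09.

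Per kilobase of exon, the scale on which genes can be compared, the vehicle level was highest for Sqstm1, at 192 ± 60.7 CPM per kb (SD, n = 3), and for Srxn1, at 146 ± 17.3. Their 3 cultures overlapped, so their order is not settled. Hmox1 (49.0 ± 36.3), Gsr (46.6 ± 1.91) and Txnrd1 (45.8 ± 8.93 CPM per kb) came next and also overlapped with each other. The ligase subunits Gclc, at 17.9 ± 2.08, and Gclm, at 17.2 ± 3.35 CPM per kb, could not be ordered. Nqo1 (6.61 ± 3.31), Slc7a11 (3.67 ± 1.13) and Osgin1 (2.87 ± 1.28) were lowest, and each overlapped its neighbour in this order. Between these 4 groups of genes the vehicle cultures did not overlap.

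The members differed in how they varied over the 6 cultures. By the root mean square difference of mean-centred log2 CPM, Srxn1 and Txnrd1 were the most alike pair, at 0.152, and Hmox1 and Nqo1 the least alike, at 1.16. Nqo1, the member of largest fold change in the blocked edgeR fit, was compared over the 6 cultures with 13550 other genes whose mean log2 CPM was 1 or more. Those closest to it were Xdh (0.125), LOC105244251 (0.154) and Mcoln2 (0.155).

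NRF2 itself and the proteins that control it formed a list of 15 genes, all tested, of which 2 were called higher and 0 lower, against 3.32% and 5.38% of all tested genes. The count was 1 without replicate 1 and 1 without a low-count filter. Both called genes encode small MAF proteins, the partners of NRF2 on DNA. Mafg was at 113, 132 and 145 CPM with vehicle and at 172, 174 and 209 CPM with HC-HA/PTX3. Mafk was at 31.4, 32.8 and 40.6 CPM with vehicle and at 51.3, 47.2 and 64.3 CPM with HC-HA/PTX3. For both genes all treated cultures lay above all vehicle cultures. In 3 of 3 pairs each, Mafg rose by 0.51 (SE 0.065) and Mafk by 0.63 (SE 0.074) in log2 fold change, with edgeR adjusted p = 0.00107 and 0.000893. Without the replicate block their adjusted p-values were 0.27 and 0.263. The third small MAF gene, Maff, had a log2 fold change of -0.076 (edgeR adjusted p = 0.608). Gsk3b, the most abundant gene of the list and a kinase that marks NRF2 for degradation, had 0.079 (adjusted p = 0.456).

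Nfe2l2 and Keap1, like Maff, are named for their place in the pathway, outside the rule for named genes and after their values had been seen. Nfe2l2 was at 129, 134 and 120.0 CPM with vehicle and 127, 121 and 103 CPM with HC-HA/PTX3, a log2 fold change of -0.13 (SE 0.064, edgeR adjusted p = 0.176). Keap1 was at 53.9, 50.5 and 53.7 CPM with vehicle and 42.7, 48.4 and 45.8 CPM with HC-HA/PTX3. Its treated cultures all lay below the vehicle cultures, but its log2 fold change of -0.21 (SE 0.077, edgeR adjusted p = 0.0843) did not pass. Both were lower in 3 of 3 pairs. Activity of NRF2 as a protein was not measured.

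Further NRF2 targets were listed by function in 5 lists of 65 genes, of which 61 were tested. Counts at an unadjusted p under 0.05 given below stand beside the 33.2% of all tested genes. Counts called in each list stand beside 3.32% called higher and 5.38% lower, and medians beside -0.0067 over all tested genes. Counted as 1 list, a grouping chosen after the data were seen, 7 were called higher (11.5%) and 0 lower, beside the 3.32% and 5.38% of all tested genes. The 7 include the scarce gene Gpx2, and the count was 6 where 10 counts were required in every culture. By the adjusted p alone, 18 were higher (29.5%, against 7.67% of all tested genes) and 1 was lower (against 2103 of 18277 tested genes). The lower gene was Fech, which is named after its value had been seen. The 61 genes had a median log2 fold change of 0.17. Treated cultures lay wholly above vehicle in 16 of the 61 (26.2%, against 9.44%), and 47 had a fitted value above 0. Gpx2 is also among the 18, the 16 and the 47, and no conclusion is drawn from its part in them. Without the replicate block all 5 lists gave 0 calls.

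Of 20 genes of glutathione use, 17 were tested, 3 were called higher and 0 lower, with a median of 0.26 and 16 of 17 fitted above 0. Gsta4, a glutathione transferase that clears 4-hydroxynonenal and related lipid aldehydes, was at 11.6, 17.7 and 6.82 CPM with vehicle and at 20.9, 27.0 and 21.0 CPM with HC-HA/PTX3. It rose by a log2 fold change of 1.01 (SE 0.16, edgeR adjusted p = 0.00288) in 3 of 3 pairs, without overlap. Gss, glutathione synthetase, the enzyme that completes glutathione after the ligase of Gclc and Gclm, was at 15.6, 18.5 and 18.7 CPM with vehicle and at 25.0, 24.3 and 29.3 CPM after treatment. Its groups did not overlap either, and it rose by 0.58 (SE 0.094, edgeR adjusted p = 0.00293). Gpx2, a glutathione peroxidase, was scarce, with 4, 13 and 20 counts in the vehicle cultures and 43, 44 and 40 counts in the treated ones. Its fitted log2 fold change was 2.11 (SE 0.37, edgeR adjusted p = 0.00431), an estimate from few reads. Because its counts were high only after treatment, Gpx2 may have passed the low-count filter through that group, and no conclusion is drawn from its call. It is also among the 16 genes of this list fitted above 0. It has fewer than 10 counts in a vehicle culture, and where 10 were required in every culture it was not tested and the list had 2 calls. Gpx1, the most abundant gene of the list in the mean of the 6 cultures though not in replicate 3, had a log2 fold change of 0.055 (edgeR adjusted p = 0.579).

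In the thioredoxin and peroxiredoxin list of 11 genes, 1 was called higher and 0 lower, with a median of 0.17. The called gene was Sesn2, a sestrin induced by several kinds of stress, at 6.69, 11.8 and 27.9 CPM with vehicle and 15.9, 15.8 and 31.7 CPM with HC-HA/PTX3. It was higher in 3 of 3 pairs although the groups overlapped, by a log2 fold change of 0.59 (SE 0.17, edgeR adjusted p = 0.0346), and the call was lost with limma-voom and without replicate 1, while without replicate 3 the list had 2 calls. Its pairs gave 1.24, 0.43 and 0.18. Prdx1, the most abundant peroxiredoxin here, was at 259.5, 385 and 278 CPM with vehicle and 434, 454 and 366 CPM with HC-HA/PTX3. Only treated replicate 3 lay within the vehicle range. Its log2 fold change of 0.46 (SE 0.089, edgeR adjusted p = 0.00673) passed the p threshold and not the fold threshold, as did those of Sqstm1, Txnrd1 and Srxn1.

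Detoxification and export gave 3 called higher and 0 lower of 19 tested genes, with a median of 0.062 and 7 of the 19 fitted below 0. Ephx1, microsomal epoxide hydrolase, was at 59.5, 60.5 and 60.1 CPM with vehicle and at 91.5, 79.6 and 95.9 CPM with HC-HA/PTX3. Its vehicle cultures were nearly equal and all treated cultures lay above them, a rise in log2 fold change of 0.56 (SE 0.073, edgeR adjusted p = 0.00112). Ptgr1, a prostaglandin and alkenal reductase, was at 13.2, 11.5 and 9.70 CPM with vehicle and 20.6, 17.1 and 17.6 CPM after treatment. Aldh3a1, an aldehyde dehydrogenase, was low, at 2.32, 2.70 and 1.59 CPM with vehicle and 5.17, 3.32 and 3.33 CPM after treatment. Both were without overlap and rose by 0.69 (SE 0.10, adjusted p = 0.00201) and 0.84 (SE 0.20, adjusted p = 0.0166 from the same edgeR fit). Esd, the most abundant gene of this list, had a log2 fold change of 0.24 (edgeR adjusted p = 0.0367), short of the fold threshold.

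The 6 tested genes of NADPH supply gave 0 calls and a median of 0.068, with 4 at an unadjusted p under 0.05. Tkt, a transketolase and the most abundant of them, had a log2 fold change of -0.011 (edgeR adjusted p = 0.928). The 8 genes of heme and iron handling also gave 0 calls, with a median of 0.16 and 4 at an unadjusted p under 0.05. Fth1, ferritin heavy chain, had 0.19 (SE 0.080, edgeR adjusted p = 0.117). Fech, ferrochelatase, which ends heme synthesis, was at 72.7, 65.5 and 61.3 CPM with vehicle and 53.3, 52.1 and 47.6 CPM with HC-HA/PTX3. Its groups did not overlap, and its log2 fold change of -0.38 (SE 0.067, edgeR adjusted p = 0.00431) stayed within the fold threshold. DESeq2, limma-voom and ComBat-seq with limma also gave 0 calls in both lists.

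**Figure D3:**
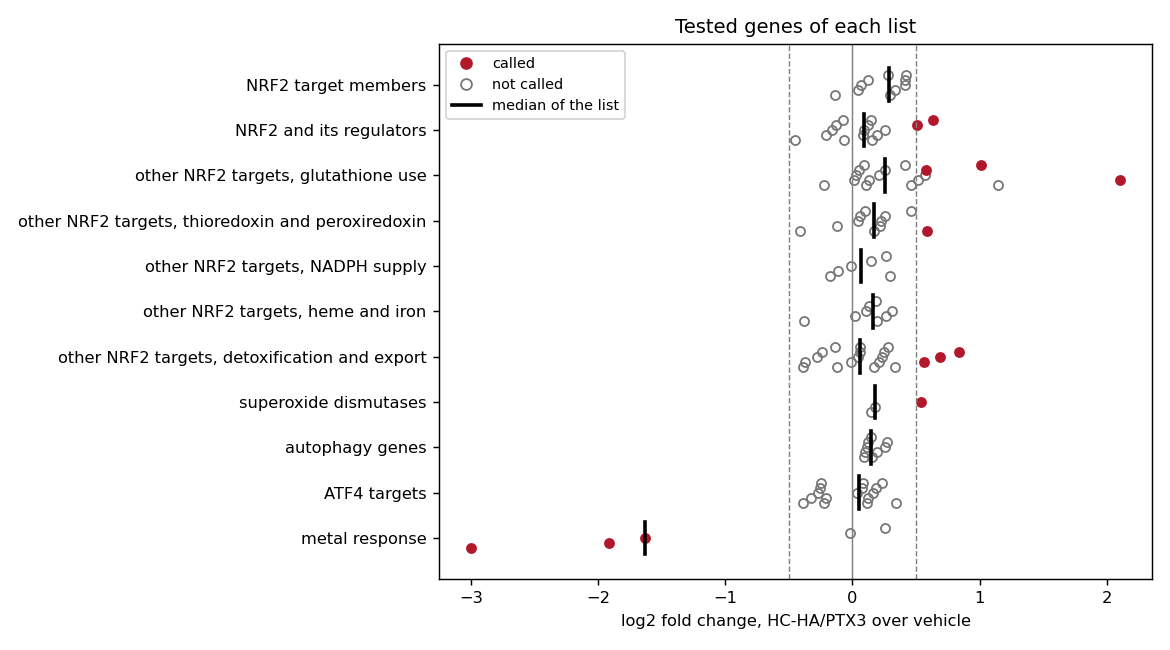
Log2 fold change of HC-HA/PTX3 over vehicle for each tested gene of 11 lists, with filled circles for called genes, open circles for the rest, a black bar at each list's median and dashed lines at -0.5 and 0.5. Called genes of the NRF2 lists all lie to the right, and 3 genes of the metal response lie far to the left.

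Other lists cover stress programmes next to NRF2. Counts of called genes in these lists and in the marker lists below stand beside 3.32% of tested genes called higher and 5.38% lower. The metal response list of 5 genes had 3 called lower and 0 higher. Mt2, a metallothionein, was at 16.9, 32.8 and 32.2 CPM with vehicle and 2.37, 4.06 and 3.71 CPM with HC-HA/PTX3, and Mt1 was at 55.1, 67.7 and 72.2 CPM against 11.4, 22.8 and 19.0 CPM. The zinc exporter gene Slc30a1 was at 25.0, 26.8 and 24.6 CPM with vehicle and 7.95, 9.18 and 7.59 CPM with HC-HA/PTX3. All 3 were lower without overlap, by log2 fold changes of -3.00, -1.91 and -1.63 (largest edgeR adjusted p = 4.7e-05). Mt3, the most abundant in the mean of the 6 cultures though below Mt1 in every vehicle culture, had 0.26 (SE 0.069, edgeR adjusted p = 0.0265).

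Slc7a11 and Sesn2 are also targets of ATF4, the factor of the amino acid and integrated stress response. The ATF4 list of 16 genes gave 0 calls, with 10 at an unadjusted p under 0.05 (against 33.2% of all tested genes) and a median of 0.055. DESeq2, limma-voom and ComBat-seq with limma gave 0 too, but 1 was called without replicate 2. The genes went both ways, with 9 fitted above 0 and 7 below. By the adjusted p alone 2 were higher and 3 were lower, against 1402 and 2103 of the 18277 tested genes. Atf4, the most abundant gene of this list in the mean of the 6 cultures though not in replicate 1, was at 121, 146 and 385 CPM with vehicle and 135, 173 and 349 CPM with HC-HA/PTX3. Like Hmox1, it was high in replicate 3 of both groups. Between replicates 3 and 1 all 16 ATF4 genes had a fitted difference above 0, with a median of 0.92 on the log2 scale, and 14 of them passed the replicate test. As lists, the other NRF2 targets did not share this, with medians between -0.25 and -0.081. Single genes did differ from their list. Above 0 were 4 of 17 genes of glutathione use, 4 of 11 of thioredoxin and peroxiredoxin and 2 of 6 of NADPH supply. The same held for 3 of 8 of heme and iron and 7 of 19 of detoxification and export. Sesn2 was among those above 0, at 1.49. Whether ATF4 or NRF2 had a part in the difference between replicates was not tested.

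Superoxide dismutases gave 1 called higher of 3. Sod3, the extracellular form, was at 36.6, 20.4 and 10.98 CPM with vehicle and 38.2, 37.5 and 17.9 CPM after treatment. The groups overlapped, and it rose by 0.54 (SE 0.14, edgeR adjusted p = 0.0216), a call that was lost without replicate 2 or without replicate 3. Sod1, the most abundant, had a log2 fold change of 0.15 (edgeR adjusted p = 0.107). A list of autophagy genes beside Sqstm1, made of receptors, ATG8-family genes and Tfeb, gave 0 calls of 9, with 5 at an unadjusted p under 0.05, all 9 fitted above 0 and a median of 0.15. Gabarapl1, the most abundant of them, had 0.12 (edgeR adjusted p = 0.187). DESeq2, limma-voom and ComBat-seq with limma gave 0 calls among them as well.

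The cultures also held RNA of cells other than neurons. In bulk RNA, fewer cells of a type and less RNA per cell cannot be told apart. The 12 neuronal markers summed to 10750, 8615 and 9628 CPM in vehicle replicates 1, 2 and 3 and to 11168, 9206 and 10935 CPM in the treated cultures. None of the 12 was called (5 at an unadjusted p under 0.05, and 0 calls by DESeq2, limma-voom and ComBat-seq with limma), and Nefl was the most abundant. Of the neuronal markers, 9 were fitted above 0 and 3 below, with a median of 0.12. By the adjusted p alone 1 was higher and 0 were lower. The 9 satellite glia markers summed to 2278, 1313 and 518 CPM with vehicle and 2145, 1316 and 517 CPM after treatment. They were lowest in replicate 3 of both groups, the cultures with the most Hmox1 and Sqstm1. Of the 9, 3 were fitted above 0 and 6 below. By the adjusted p alone 1 was higher and 4 were lower, against 1402 and 2103 of the 18277 tested genes. Apoe was the most abundant satellite glia marker. Entpd2 was called lower, at -0.62 (SE 0.15, edgeR adjusted p = 0.0183), a call that was lost without replicate 2 or without replicate 3.

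Of 9 fibroblast markers, 8 passed the replicate test, against 33.8% of tested genes, and 4 were called lower after treatment. The 9 genes summed to 3289, 2787 and 1414 CPM in vehicle replicates 1, 2 and 3 and to 2082, 1962 and 854 CPM in the treated cultures, with Thy1 the most abundant over the 6 cultures. Thy1, which neurons also express, was the only gene of the list fitted above 0, and in treated replicate 3 it made up 529 of the 854 CPM. Col1a1 (-1.62), Col1a2 (-1.11), Col3a1 (-0.96) and Postn (-0.68) were called lower and 0 were called higher. The 14 macrophage markers summed to 102, 135 and 114 CPM with vehicle and 94.1, 134 and 80.9 CPM after treatment, with Lyz2 the most abundant. Of these, 4 were called lower, against 5.38% of tested genes. The log2 fold changes were -1.98 for Cd163, -0.82 for C1qb, -0.74 for C1qa and -0.67 for Tyrobp. The count was 2 with DESeq2, 6 after ComBat-seq, 7 without a low-count filter, 1 without replicate 1 and 1 without replicate 3.

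Schwann cell markers, 8 genes led by Pmp22, summed to 1024, 762 and 594 CPM with vehicle and 893, 649 and 558 CPM after treatment. None was called higher and 2 were called lower, Cldn19 (-0.67) among them. The count was 1 with DESeq2, with limma-voom, with ComBat-seq and limma and without replicate 1, and it was 0 without replicate 3. The 10 endothelial and mural genes, led by Rgs5, summed to 696, 795 and 697 CPM with vehicle and 691, 791 and 533 CPM after treatment. They went both ways, with 4 fitted above 0, 6 below and a median of -0.080. Acta2 alone was called lower, at -1.03, though not by DESeq2. The largest edgeR adjusted p among the called markers of fibroblasts, macrophages, Schwann cells and mural cells was 0.0341, for Cldn19. No marker of any list had 0 counts in every culture. The part of these cells in the levels of the NRF2 targets was not tested.

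**Figure D4:**
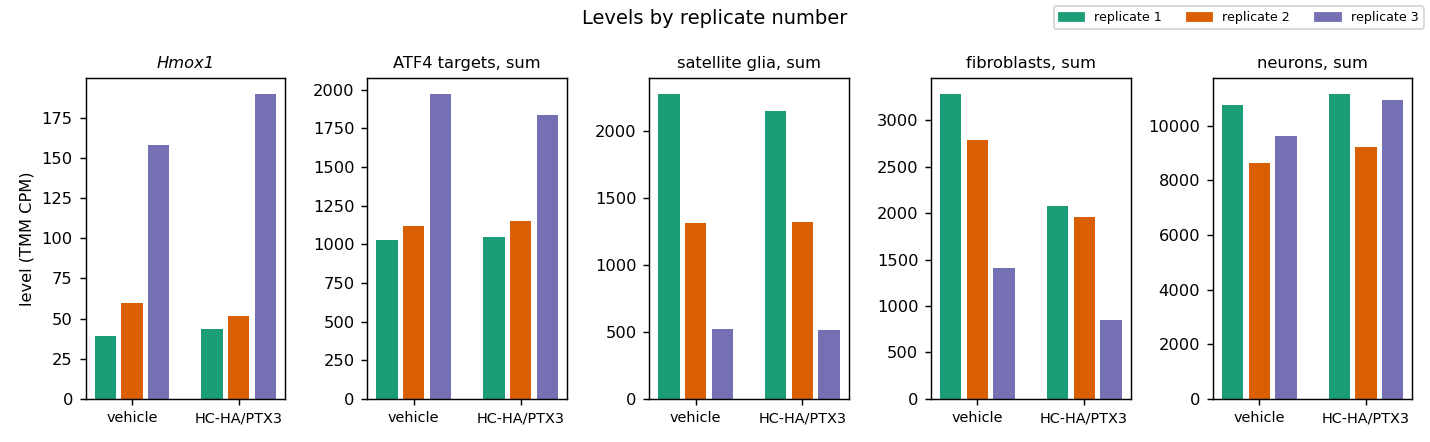
Level of Hmox1 and summed levels of 4 gene lists in TMM CPM in each culture (bars from 0, colours for the replicate number). Hmox1 and the ATF4 targets are highest in replicate 3 of both groups, where the satellite glia and fibroblast sums are lowest.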

How the data were processed

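The authors sequenced ribosomal RNA-depleted libraries and deposited raw counts, a whole number of reads per gene and culture with no normalization. Their methods name HISAT2, mm10 and featureCounts, the file headers name STAR, and the strand setting is not stated. Tool versions are not given in the sources used here. Groups and replicate numbers came from the sample labels.

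Counts were analysed in R 4.3.3 with edgeR 4.0.16 (filterByExpr by treatment, TMM, glmQLFit and glmQLFTest with the replicate number as a block, Benjamini-Hochberg adjustment over all 18277 tested genes). Alternatives used limma 3.58.1, DESeq2 1.42.0 and sva 3.50.0, other scalings and filters, and each pair left out in turn. The edgeR fits with and without the block, limma-voom, DESeq2 and ComBat-seq with limma were tested on simulated data with 200 planted changes. Each planted change was 1.5 on the log2 scale, larger than any member's fitted change, so recovery of smaller changes was not tested. The fits recovered 200, 135, 199, 198 and 200 of the planted changes, and called 7, 0, 7, 2 and 68 unchanged genes.

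The methods describe a batch term without listing batches, so the number shared by the labels stood in for it. Deviations from the group means correlated across tested genes at 0.606, 0.513 and 0.755 for same-numbered cultures and at -0.59 to 0.135 for others, so the numbers were treated as pairs. Chi-square per degree of freedom between libraries of a group was 31.4 to 108, so none was a duplicate. Limits for a count of 0 use 3 counts and cover counting error only. Log2 CPM used an added count of 0.5.

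The members and lists were chosen with earlier results of these data known. Named genes are the members, up to 4 called genes and the most abundant tested gene of each list (by mean CPM over the 6 cultures), and the 3 genes most like the member with the largest change. Lists cover NRF2 regulators, 5 functions linked to NRF2, superoxide dismutases, ATF4 targets, metal response, autophagy genes and markers of 6 cell types. Positions and exon lengths came from GENCODE M21 by symbol and promoters from RefSeq.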

Additional observations from a re-analysis of the deposited data

How the results depend on the processing

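No member was called in 10 of the 12 alternative settings, and the fitted direction of 9 members was the same in all 12. Hmox1 alone reversed, with log2 fold changes from -0.019 (without replicate 3) to 0.21 (without replicate 2). Without a fold-change threshold, with the replicate block kept, 3 members were called, all of them higher. Leaving out a pair in turn gave 0 to 1 called members, all higher, the 1 being Nqo1 without replicate 2, and 878 to 1571 called genes in all. Dropping the replicate block from the edgeR fit left 0 called genes of the 1591 and dropping the fold-change threshold gave 3505. DESeq2 and limma-voom were not run without the block. Of the called genes, 61.8% were lower, against 52.4% after ComBat-seq, 69.6% with DESeq2 and 71.8% without replicate 1. Between TMM and raw library sizes the mean level of every member moved by less than the spread between replicates. In the stretch before the start only, TGACNNNGC occurred in 2 members.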
